A study of Homo sapiens with 4 samples.

Results

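*CDH5*, *PECAM1*, *ESAM*, *KDR*, *FLT1*, *TEK*, *TIE1*, *ENG*, *VWF* and *EGFL7* are genes that endothelial cells use to build vessels and that native FLI1 or other ETS factors bind there. They were followed here in an epithelial cell line, through the peaks of Flag-tagged FLI1 that lay near them. These 10 genes were taken by symbol from GENCODE release 44, out of 20033 protein-coding genes on the assembled chromosomes. For each gene, all peaks within 3 kb of the transcription start site (TSS) of an annotated transcript, in the gene body or within 50 kb of the gene were taken. Peaks were taken by position alone, whatever their height. The windows of the 10 genes covered 1757 kb of GRCh38 and held 66 of the 30819 peaks of the control library and 71 of the 39654 peaks of the IFN-γ library.

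Chromatin of HK1 cells, an established line of nasopharyngeal carcinoma, was pulled down through the Flag tag of a FLI1 protein that the cells overexpressed. One library came from cells given PBS, the control, and the other from cells given IFN-γ for 24 h, and both carried the overexpressed FLI1. The antibody sees the overexpressed protein alone, there was 1 library per condition, and the input libraries were not analysed here. Peak lists record where the protein was bound and not which genes were expressed, so the cell type could not be checked against its markers. With 1 library on each side, whether IFN-γ changed binding could not be tested.

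FLI1 belongs to the ETS family, whose members bind DNA at a GGAA core and prefer the longer words CCGGAAGT and CAGGAAGT. With its close relative ERG it is active in endothelial cells, where ETS factors occupy promoters and enhancers of many endothelial genes, often together with GATA, SOX or FOX factors. FLI1 is also known for binding tandem repeats of GGAA when it is part of the fusion protein of Ewing sarcoma.

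Each deposited peak has a fold enrichment, which is the number of fragments piled up at its summit plus 1, divided by the local background plus 1. The whole number of fragments was solved from that fold and the −log10 p of the peak, and it was recovered for 100% of the peaks. The median summit held 16 fragments in the control and 22 after IFN-γ, and the lowest backgrounds, 1.06 and 1.54 fragments, gave a relative depth of 1.46. Ratios between the libraries below are ratios of summit pileups divided by this depth. Their ranges are exact binomial 95% intervals, which cover counting error only and leave out variation between replicates. Signal too weak to be called leaves no entry, so a missing peak is no sign that FLI1 was absent from the site.

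The summits that the results turn on are shown first. For each of 6 genes, the sequence is that around the strongest peak whose nearest annotated TSS belonged to the gene, taken 100 bp either side of the IFN-γ summit on the plus strand of GRCh38. Capitals mark GGAA cores, read as GGAA or TTCC according to strand, and the AP-1 words TGACTCA and TGAGTCA. The *CDH5* site, at chr16:66347612-66347812 and 19.0 kb upstream of the gene, lies on a run of 15 GGAA units, from 66347641 to 66347700. That of *EGFL7*, at chr9:136655968-136656168, has 9 cores and 1 octamer. The *ENG* site, at chr9:127844926-127845126, lies in intron 1 and has 10 cores without an octamer. The control summit of this *ENG* peak, 112 bp away, had 5 cores and 1 octamer within 100 bp. Sites in introns of *VWF* (chr12:6116775-6116975), *TEK* (chr9:27117800-27118000) and *PECAM1* (chr17:64363011-64363211) have 4, 5 and 1 cores.
CDH5: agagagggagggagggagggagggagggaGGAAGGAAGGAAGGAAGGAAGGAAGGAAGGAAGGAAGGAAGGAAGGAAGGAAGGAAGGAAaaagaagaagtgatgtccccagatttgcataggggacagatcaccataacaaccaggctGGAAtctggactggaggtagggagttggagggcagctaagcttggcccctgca
EGFL7: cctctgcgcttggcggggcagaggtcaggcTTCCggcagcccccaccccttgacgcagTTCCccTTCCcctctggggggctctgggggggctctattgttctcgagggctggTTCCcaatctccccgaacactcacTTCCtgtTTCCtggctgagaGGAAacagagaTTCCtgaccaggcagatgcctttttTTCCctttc
ENG: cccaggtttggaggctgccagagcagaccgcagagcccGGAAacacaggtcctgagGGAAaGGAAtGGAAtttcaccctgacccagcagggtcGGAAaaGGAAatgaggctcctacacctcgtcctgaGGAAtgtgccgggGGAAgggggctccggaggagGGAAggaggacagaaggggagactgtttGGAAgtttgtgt
VWF: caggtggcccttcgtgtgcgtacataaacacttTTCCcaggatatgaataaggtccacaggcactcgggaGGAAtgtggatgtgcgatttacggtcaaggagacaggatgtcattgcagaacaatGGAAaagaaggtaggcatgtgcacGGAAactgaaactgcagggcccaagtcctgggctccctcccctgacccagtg
TEK: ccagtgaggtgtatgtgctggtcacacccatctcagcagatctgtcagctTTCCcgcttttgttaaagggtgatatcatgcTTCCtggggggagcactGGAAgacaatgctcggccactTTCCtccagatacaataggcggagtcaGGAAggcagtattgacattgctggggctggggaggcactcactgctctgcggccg
PECAM1: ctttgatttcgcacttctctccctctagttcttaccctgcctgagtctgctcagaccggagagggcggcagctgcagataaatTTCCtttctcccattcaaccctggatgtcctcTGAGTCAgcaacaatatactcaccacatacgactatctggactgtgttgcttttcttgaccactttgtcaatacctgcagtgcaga

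A further 3 sites were chosen after their values were seen, from those that held the largest peaks of their windows although another TSS lay closer. They are the intron 21 peak of *TEK* at chr9:27227336-27227536, the intron 15 peak of *PECAM1* at chr17:64326620-64326820, and the only peak in the *KDR* window, at chr4:55172807-55173007. The *KDR* sequence has 5 cores, 1 of them in an octamer, and the other 2 have 4 cores and 1 core. The distal peak upstream of *TIE1*, with 2 octamers at its summit, had the highest fold of its window and met the same description. Its sequence is not printed.
TEK, intron 21: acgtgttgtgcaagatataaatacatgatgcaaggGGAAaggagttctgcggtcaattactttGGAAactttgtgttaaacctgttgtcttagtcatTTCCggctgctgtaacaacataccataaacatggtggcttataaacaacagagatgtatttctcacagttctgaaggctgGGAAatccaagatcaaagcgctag
PECAM1, intron 15: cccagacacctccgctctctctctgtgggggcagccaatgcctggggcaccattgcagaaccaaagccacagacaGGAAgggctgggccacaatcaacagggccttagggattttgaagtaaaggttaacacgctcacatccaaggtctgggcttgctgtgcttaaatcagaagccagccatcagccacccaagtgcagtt
KDR, upstream: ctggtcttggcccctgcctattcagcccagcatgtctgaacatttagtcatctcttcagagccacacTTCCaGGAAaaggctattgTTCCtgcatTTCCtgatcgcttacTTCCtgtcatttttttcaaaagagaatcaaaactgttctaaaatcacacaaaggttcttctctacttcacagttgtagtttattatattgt

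Promoter sequences came from RefSeq (GRCh38.p14), which gave 8 windows of 300 bases for 6 of the genes, *KDR*, *FLT1*, *TEK*, *TIE1*, *ENG* and *EGFL7*. All 8 windows held a GGAA core, as did 95.5% of the 35116 promoter windows of the table, and the median number of cores was 4 against 3. An octamer was found in 1 of the 8 windows, that of the MANE Select start of *EGFL7*, and in 7.02% of all windows. Printed below are the 250 bases upstream of the TSS of *ENG* (chr9:127854659-127854908, minus strand) and *EGFL7* (chr9:136662666-136662915, plus strand), each of which had a peak in at least 1 library. Beside them stands *TIE1* (chr1:43300732-43300981, plus strand), which had none in either and was added after its values were seen. The *TIE1* stretch held 4 cores, the *ENG* stretch 3 and the *EGFL7* stretch 4, so the cores were present with and without a peak.
ENG: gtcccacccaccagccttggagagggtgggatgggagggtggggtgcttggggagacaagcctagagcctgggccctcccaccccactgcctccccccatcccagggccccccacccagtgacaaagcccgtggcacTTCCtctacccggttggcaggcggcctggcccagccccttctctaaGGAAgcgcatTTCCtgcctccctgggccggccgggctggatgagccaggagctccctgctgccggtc
EGFL7: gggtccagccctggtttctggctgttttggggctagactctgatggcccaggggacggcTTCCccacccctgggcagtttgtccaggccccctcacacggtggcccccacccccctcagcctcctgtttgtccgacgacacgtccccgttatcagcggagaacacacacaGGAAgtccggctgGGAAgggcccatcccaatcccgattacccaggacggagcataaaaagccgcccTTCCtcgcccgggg
TIE1: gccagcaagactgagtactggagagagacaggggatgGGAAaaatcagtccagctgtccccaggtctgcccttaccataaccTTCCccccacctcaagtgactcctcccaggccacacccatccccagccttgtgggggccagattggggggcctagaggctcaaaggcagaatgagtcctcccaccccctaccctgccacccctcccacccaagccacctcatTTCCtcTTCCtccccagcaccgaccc

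Counted within 3 kb of any annotated TSS, Flag-FLI1 was found at the promoters of these genes about as often as at promoters in general. A peak lay within 3 kb of an annotated TSS at 5 of the 10 genes in the control library, where 61.9% of all protein-coding genes had one, and at 6 of 10 in the IFN-γ library, where the share was 59.7%. *CDH5*, *ESAM*, *FLT1*, *ENG* and *EGFL7* had such a peak in both libraries and *PECAM1* in the IFN-γ library alone. *KDR*, *TEK*, *TIE1* and *VWF* had none in either. Within 1 kb of the MANE Select TSS, the start of the reference transcript, 3 of the 10 genes had a peak in each library, against 54.7% of all genes in the control and 50.5% in the IFN-γ library. These were *ESAM*, *ENG* and *EGFL7* in the control and *PECAM1*, *ESAM* and *ENG* after IFN-γ.

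All 10 windows held at least 1 peak in each library, which 85.8% of all protein-coding genes did in the control and 88.8% after IFN-γ. Counted per length, the windows had a median of 3.62 peaks per 100 kb in the control and 4.79 after IFN-γ, against 1.82 and 2.15 for all protein-coding genes. The spread among the 10 was wide, from 0.680 per 100 kb at *KDR* in both libraries to 14.1 at *EGFL7* in the control and 7.91 there after IFN-γ. Of the control peaks, 12 overlapped a promoter of the gene itself, 17 others lay in its body and 37 in its flanks, and the counts after IFN-γ were 13, 19 and 39. Other genes had promoters there as well, and 14 control and 16 IFN-γ peaks overlapped the promoter of another protein-coding gene and none of the gene itself. By nearest TSS, 22 control and 23 IFN-γ peaks were assigned to one of the 10 genes.

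**Figure D1:**
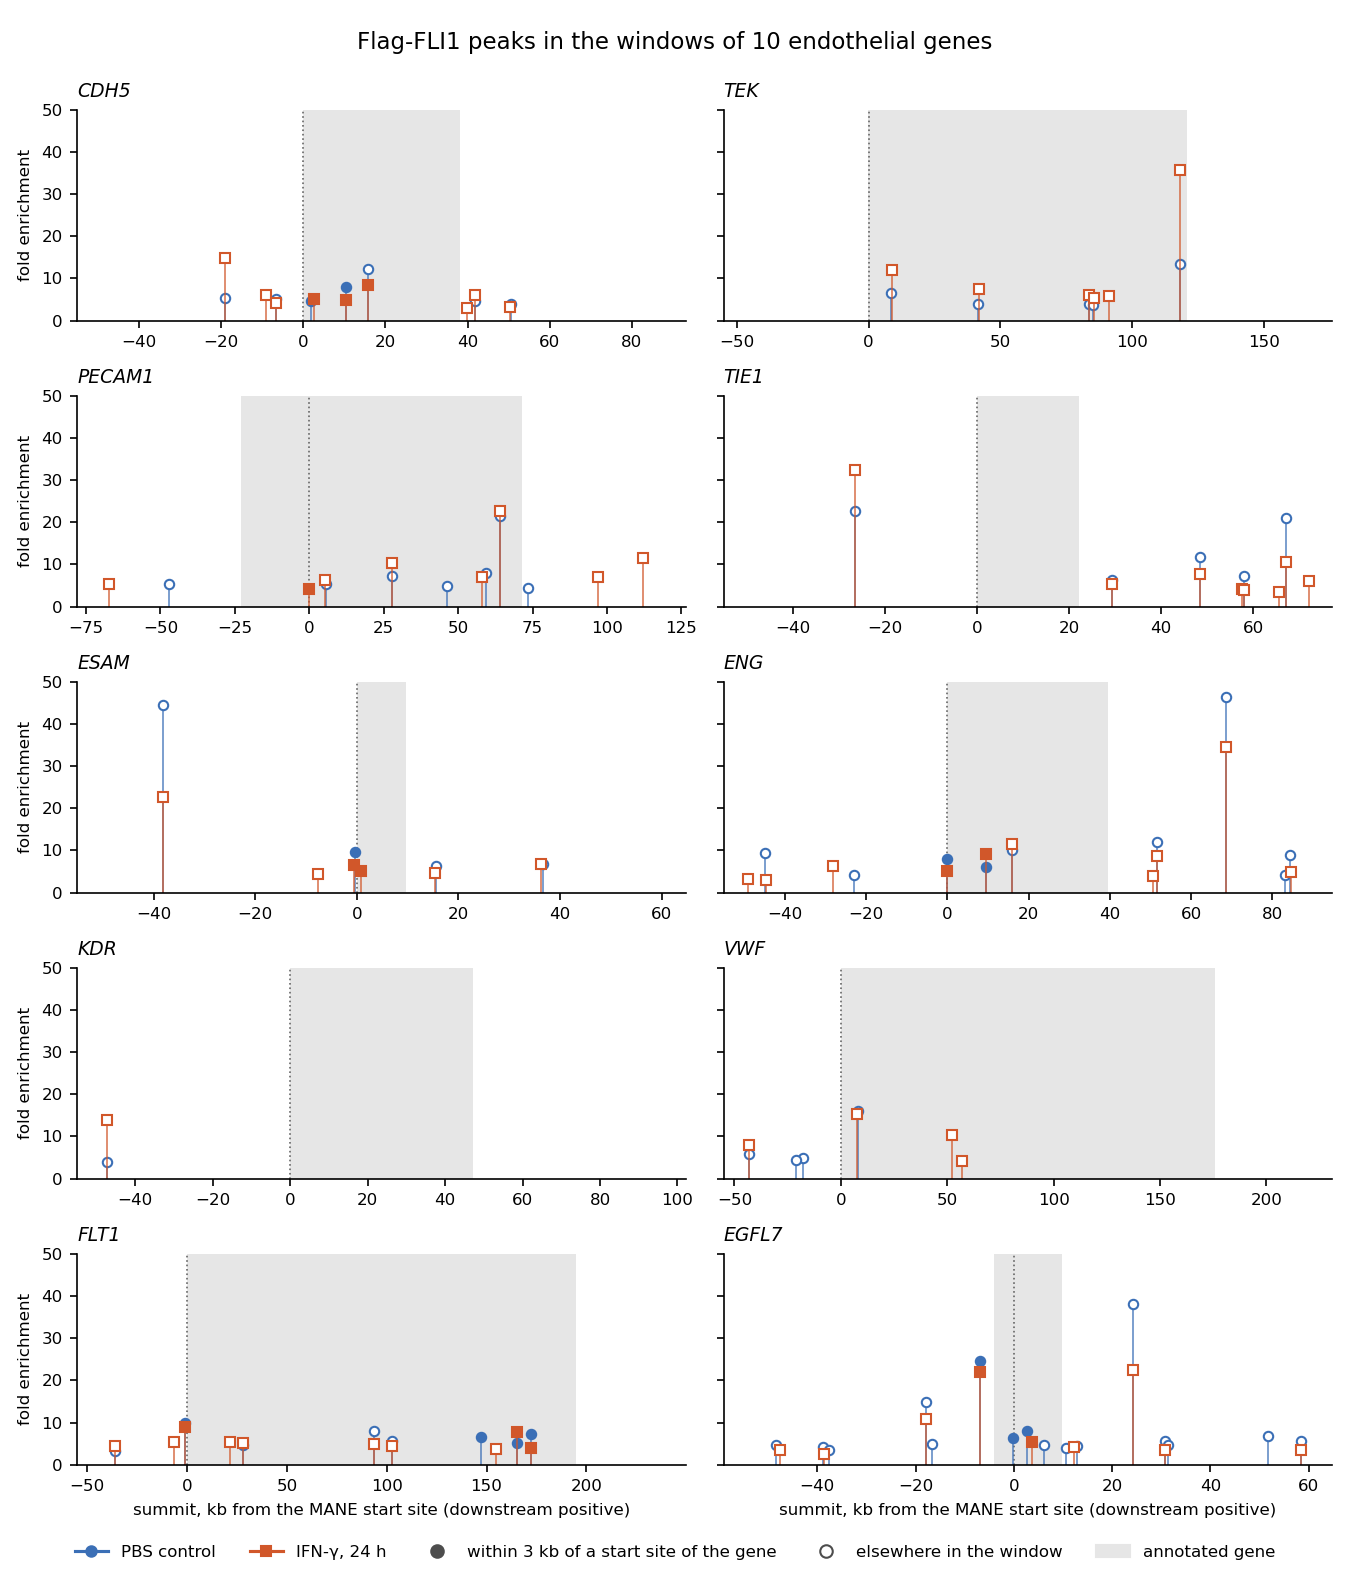
Fold enrichment of each Flag-FLI1 peak (vertical axis) against the distance of its summit from the MANE TSS of the gene in kb (horizontal axis), 1 panel per gene, for the control library (blue circles) and the IFN-γ library (orange squares). Filled symbols lie within 3 kb of a TSS of the gene and the grey area is the annotated gene; the highest symbols in the panels of *ESAM*, *ENG* and *EGFL7* stand outside the gene, while those of *PECAM1*, *TEK* and *VWF* stand within it.

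The peaks in these windows were of ordinary height. Their median fold was 6.16 in the control and 5.87 in the IFN-γ library, beside 6.81 and 6.57 over all peaks, and their median summit held 15.5 and 21 fragments. In each library 7 of them ranked among the strongest 10% of peaks. Promoters of other coding genes accounted for 4 of these 7 in the control and 3 of 7 after IFN-γ, and a promoter peak of the gene itself, that of *EGFL7*, for 1 in each. No summit fell in an exon of the 10 reference transcripts, and 24 control and 27 IFN-γ summits fell in their introns.

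Among the junction genes, *CDH5*, which encodes VE-cadherin, the adhesion molecule that holds endothelial cells together, lies at chr16:66366690-66404784 on the plus strand, and its peaks fell upstream, in introns 1 and 2 and downstream of it. The control library had 7 and the IFN-γ library 9. The highest control peak was in intron 2, 15.8 kb from the TSS, at chr16:66382330-66383109, with a fold of 12.3 and 36 fragments, and the IFN-γ library had a fold of 8.48 and 37 fragments there. Both summits had an AP-1 word within 100 bp and no octamer. The pileup ratio was 0.706 (0.434 to 1.15), so the interval spanned 1.

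The GGAA run 19.0 kb upstream carried the highest *CDH5* peak after IFN-γ. Its fold was 5.25 with 11 fragments in the control and 14.8 with 41 fragments after IFN-γ. The ratio of 2.56 (1.29 to 5.52) was the second highest of the shared pairs in the 10 windows and stood at percentile 96.1 of all shared distal pairs. A neighbouring site 6.55 kb upstream went the other way, with 16 fragments in the control and 11 after IFN-γ, a ratio of 0.472 (0.198 to 1.08) whose interval spanned 1.

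No peak lay within 1 kb of the MANE TSS of *CDH5*. The nearest control peak had its summit 1.80 kb downstream, in intron 1, with a fold of 4.68 and 9 fragments. The nearest IFN-γ peak was at 2.56 kb, with a fold of 5.0 and 16 fragments, and neither had a counterpart in the other library. At an alternative TSS further into the gene, both libraries had a peak, with its summit 197 bp away in the control (fold 7.87, 17 fragments) and 137 bp away after IFN-γ (fold 4.96, 18 fragments).

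*PECAM1*, the gene of the adhesion molecule CD31 of endothelial cells, platelets and leukocytes, lies at chr17:64319415-64413776 on the minus strand. Its window held 7 control and 8 IFN-γ peaks, 4 of each shared. One peak stood far above the rest in both libraries, in intron 15 near the end of the gene, at chr17:64326410-64327002 in the control. Its fold was 21.4 with 51 fragments in the control and 22.7 with 78 fragments after IFN-γ, and the ratio of 1.05 (0.729 to 1.53) spanned 1. The site has a single GGAA core within 100 bp of the summit, no octamer and no AP-1 word.

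At the MANE TSS of *PECAM1*, a peak was listed after IFN-γ alone, with its summit 54 bp upstream at chr17:64390740-64390968. It was low, with a fold of 4.19 and 10 fragments over a background of 1.62, and ranked 35706 of 39654. The intron 6 peak, whose sequence holds the AP-1 word, had a fold of 7.24 with 14 fragments in the control and 10.2 with 25 fragments after IFN-γ, a ratio of 1.23 (0.613 to 2.55). An IFN-γ peak without a control counterpart lay downstream of the gene at chr17:64278682-64278971, with a fold of 11.5 and 31 fragments and an octamer at its summit. Of the other unmatched IFN-γ peaks, those at 97.1 kb downstream and 67.3 kb upstream of the TSS lay on GGAA runs of 7 and 5 units.

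*ESAM* encodes an adhesion molecule of endothelial tight junctions and lies at chr11:124752583-124762290 on the minus strand. Its promoter had a peak in both libraries, with the summit 270 bp upstream of the MANE TSS in the control, where the fold was 9.73 with 19 fragments. After IFN-γ the summit was 592 bp upstream, the fold 6.65 and the pileup 18 fragments, a ratio of 0.651 (0.322 to 1.31). An antisense gene, *ESAM-AS1*, starts closer to both summits than *ESAM* does, so a nearest-TSS rule gave this peak to the antisense gene. Another promoter peak, 767 bp into the gene, was listed after IFN-γ alone with a fold of 5.13 and 12 fragments.

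The tallest peak in the *ESAM* window belonged to a neighbour. It covered the promoter of *MSANTD2*, 38.1 kb upstream, with a fold of 44.5 and 95 fragments in the control and 22.7 and 126 fragments after IFN-γ. The ratio of pileups was 0.911 (0.692 to 1.20), while the background there was 1.16 in the control and 4.60 after IFN-γ, more than the relative depth of 1.46. The fold was thus lower after IFN-γ at a site where the interval of the pileup ratio spanned 1.

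Of the receptors for VEGF, the growth factor of vessels, *KDR* had the fewest peaks of the 10 genes. *KDR* encodes VEGFR2, the main signalling receptor, and lies at chr4:55078481-55125595 on the minus strand. Neither its promoter nor its body held a peak, and the single site in its window was 47.3 kb upstream of the TSS, nearest to the long non-coding gene ENSG00000287060. There the fold was 3.99 with 15 fragments in the control and 13.9 with 45 fragments after IFN-γ. The ratio was 2.06 (1.13 to 3.98), at percentile 89.1 of shared distal pairs, and both summits had an octamer.

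*FLT1* encodes VEGFR1, which also exists as a soluble form that binds and holds VEGF, and lies at chr13:28300346-28495145 on the minus strand. It had 8 control and 10 IFN-γ peaks, of which 7 of each were shared, and all were modest, with folds between 3.36 and 9.97. The strongest in both libraries was at the promoter, with its summit 1.25 kb upstream of the MANE TSS in the control (fold 9.97, 22 fragments) and 1.23 kb upstream after IFN-γ (fold 8.90, 24 fragments). Its ratio was 0.749 (0.402 to 1.40).

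Within *FLT1*, peaks were spread over introns 1 to 21. Close to TSSs of shorter transcripts, the intron 21 peak had folds of 7.37 and 4.06 and the intron 18 peak 5.18 and 7.64 in the control and IFN-γ libraries. An intron 15 peak, 1701 bp from another *FLT1* TSS, was listed in the control alone, with a fold of 6.50 and 14 fragments. The intron 11 peak lay on a run of 4 GGAA units and had 22 fragments in the control and 21 after IFN-γ, a ratio of 0.656 (0.343 to 1.25). The longer run at *CDH5* had a ratio of 2.56, and the difference between the 2 sites was not tested. All 7 shared *FLT1* pairs had intervals that spanned 1.

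The angiopoietin receptor genes had no promoter peak in either library. *TEK* encodes TIE2, the receptor for angiopoietins, and lies at chr9:27109141-27230174 on the plus strand. All of its 5 control and 6 IFN-γ peaks lay within the gene, in introns. The highest, in intron 21 and 118 kb from the TSS, had a fold of 13.5 with 35 fragments in the control and 35.7 with 136 fragments after IFN-γ. It stood in the top 15.1% of the control list and the top 1.37% of the IFN-γ list.

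The ratio at this *TEK* site was 2.67 (1.83 to 3.99), the highest among the 49 shared pairs in the 10 windows and at percentile 96.8 of shared distal pairs. A pseudogene, *RPL36AP34*, has the nearest TSS. The first-intron peak at chr9:27117762-27118052, 8.66 kb from the TSS, had a fold of 6.48 with 25 fragments in the control and 12.0 with 45 fragments after IFN-γ. Its ratio of 1.24 (0.742 to 2.1) spanned 1 and equalled the median of all shared distal pairs. The other 3 shared *TEK* pairs held 8 or 9 fragments in the control and 18 to 21 after IFN-γ. Their ratios were 1.55 to 1.63, at percentiles 70.1 to 74.5 of shared distal pairs, and the intervals also spanned 1. In these 3 pairs the summits of the 2 libraries were 124 to 347 bp apart, so the pileups belong to different positions.

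*TIE1*, the gene of the related orphan receptor that modulates TIE2, lies at chr1:43300982-43323108 on the plus strand and had no peak in its promoter or body. The 5 control and 8 IFN-γ peaks of its window lay in the flanks, and the nearest annotated TSS was never that of *TIE1*. Upstream, 26.4 kb from the TSS and nearest to *TMEM125*, stood a distal peak with 2 octamers at its summit, at chr1:43274374-43274832 in the control. It had a fold of 22.7 with 46 fragments in the control and 32.4 with 104 fragments after IFN-γ, a ratio of 1.55 (1.09 to 2.25) at percentile 70.3 of shared distal pairs.

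Downstream of *TIE1*, some peaks were at promoters of other genes. The promoters of *CDC20* and *ELOVL1* had folds of 7.17 and 21.0 in the control. At *ELOVL1* the pileup was 47 in the control and 40 after IFN-γ, a ratio of 0.585 (0.374 to 0.911) whose interval lay below 1.

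*ENG* encodes endoglin, a co-receptor for TGF-β family ligands that is mutated in hereditary haemorrhagic telangiectasia, and lies at chr9:127815013-127854658 on the minus strand. It was the only gene of the 10 with a peak on its MANE TSS in both libraries. The summit was 9 bp upstream in the control, with a fold of 7.97 and 23 fragments, and 60 bp upstream after IFN-γ, with a fold of 5.23 and 32 fragments. The ratio was 0.956 (0.542 to 1.71).

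Further into *ENG*, the intron 2 peak at chr9:127838512-127839112 had a fold of 10.2 with 40 fragments in the control and 11.4 with 59 fragments after IFN-γ, a ratio of 1.01 (0.667 to 1.55). The intron 1 peak, near an alternative TSS, had 15 fragments in the control and 31 after IFN-γ, a ratio of 1.42 (0.744 to 2.83). With its 10 cores it was the second densest of the printed sites, after the *CDH5* repeat, which has 16. All 3 pairs within *ENG* had intervals that spanned 1.

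The window of *ENG* is crowded with other promoters, which 6 of its 9 control peaks and 7 of its 10 IFN-γ peaks overlapped. At *CDK9*, a kinase gene of transcription elongation 68.6 kb from the *ENG* TSS, the fold was 46.3 with 118 fragments in the control and 34.6 with 144 fragments after IFN-γ, the highest control fold in all 10 windows. Its ratio of 0.838 (0.653 to 1.08) spanned 1. *FPGS* had folds of 12.1 and 8.68 and *SH2D3C* 8.99 and 5.0. At *ST6GALNAC6* the pileup was 23 in the control and 15 after IFN-γ, a ratio of 0.448 (0.217 to 0.896), the lowest among the 49 pairs. *AK1* had a promoter peak in the control alone, with a fold of 4.23.

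Of the genes for secreted proteins, *VWF* encodes von Willebrand factor, the clotting protein stored by endothelial cells and platelets, and lies at chr12:5948877-6124770 on the minus strand. It had no promoter peak and 4 peaks in each library, 2 of each shared. The strongest was in intron 3, 7.83 kb from the TSS, at chr12:6116483-6117097, with a fold of 15.9 and 40 fragments in the control and 15.3 and 63 fragments after IFN-γ. The ratio was 1.08 (0.716 to 1.65).

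Around this site the *VWF* peaks differed between the lists. Intron 8 had a peak after IFN-γ alone, with a fold of 10.3 and 29 fragments, and intron 10 one with a fold of 4.16 and 11 fragments. In the control alone, peaks 17.7 and 21.1 kb upstream had folds of 4.84 and 4.38 with 9 and 8 fragments. The shared upstream site, 43.3 kb from the TSS and with an AP-1 word, had 15 fragments in the control and 38 after IFN-γ, and its ratio of 1.74 (0.935 to 3.40) spanned 1.

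*EGFL7* encodes a secreted protein of the vessel wall and carries the endothelial microRNA gene *MIR126* in an intron. It lies at chr9:136658856-136672678 on the plus strand and had the most peaks per length of the 10 genes in both libraries. A strong site 6.86 kb upstream of the MANE TSS and 2796 bp upstream of the outermost TSS, at chr9:136655558-136656390 in the control, was the highest promoter peak of the 10 genes. It had a fold of 24.7 with 73 fragments in the control and 21.9 with 119 fragments after IFN-γ, a ratio of 1.12 (0.830 to 1.52). The interval spanned 1, so a difference was not detectable at this depth.

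Closer to the reference transcript, the *EGFL7* lists parted. In the control a peak covered the MANE TSS, with its summit 85 bp upstream, a fold of 6.45 and 13 fragments, and no IFN-γ peak overlapped it. This stretch holds the octamer of the printed *EGFL7* promoter. In intron 3, both libraries had a peak, with folds of 8.06 and 5.48, but their summits were 1084 bp apart. A peak nearest to *MIR126*, in intron 5, was listed in the control alone with a fold of 4.70, 10 fragments and an octamer.

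*EGFL7* was also the only gene of the 10 with fewer peaks after IFN-γ, 9 against 16, while the whole IFN-γ list was longer. Of the 16, 9 had no counterpart, and these held 8 to 15 fragments each. Backgrounds at the peaks of this window were 1.17 to 4.36 fragments in the control and 2.83 to 7.44 after IFN-γ, and their part in the difference was not tested. The tallest peak of the window was the promoter of *AGPAT2*, 24.2 kb downstream of the *EGFL7* TSS, with a fold of 38.2 and 89 fragments in the control and 22.4 and 101 fragments after IFN-γ (ratio 0.779, 0.580 to 1.05).

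Over the 10 windows, 48 of the 66 control peaks (72.7%, exact 95% interval 60.4% to 83.0%) overlapped an IFN-γ peak, beside 77.5% of all control peaks. In the other direction, 51 of the 71 IFN-γ peaks (71.8%, 59.9% to 81.9%) overlapped a control peak, beside 61.0% of all. For distal IFN-γ peaks, those away from every annotated promoter, the shares were 26 of 36 (72.2%, 54.8% to 85.8%) and 47.0%. These shares are descriptions, since peaks of 1 window share their gene and library.

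Among the 49 shared pairs the median ratio was 0.956, beside 1.01 over all 23491 shared pairs. It was 0.838 in the 23 pairs at a promoter of any gene and 1.07 in the 26 distal pairs, beside 0.887 and 1.24 over all promoter and distal pairs. Of the promoter pairs, 0 of 23 had at least 2 times the control pileup after IFN-γ, as 3.7% of all promoter pairs did, and 1, at *ST6GALNAC6*, had at most 1/2, as 5.97% of all did. Of the distal pairs, 3 of 26 reached 2 times, at *TEK* intron 21, *CDH5* and *KDR*, beside 12.9% of all distal pairs. A further 2, upstream of *CDH5* and of *EGFL7* (summits 168 bp apart in the latter), were at most 1/2, beside 1.35% of all. The interval lay above 1 in 5 of the 26 distal pairs, those 3 and both outermost distal pairs of the *TIE1* window, as in 18.7% of all distal pairs, and in 0 of the 23 promoter pairs, beside 7.13% of all. It lay below 1 in 2 promoter pairs, at *ELOVL1* and *ST6GALNAC6*, beside 11.7% of all, and in 1 distal pair, upstream of *EGFL7*, beside 1.63%. It crossed 1 in the other 41 pairs, where a difference was not detectable at this depth. The downstream distal *TIE1* pair with an interval above 1 had a ratio of 1.88 (1.02 to 3.65). Its control peak, at chr1:43373121-43373355, lay just past the window and is not among the control peaks counted there.

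**Figure D2:**
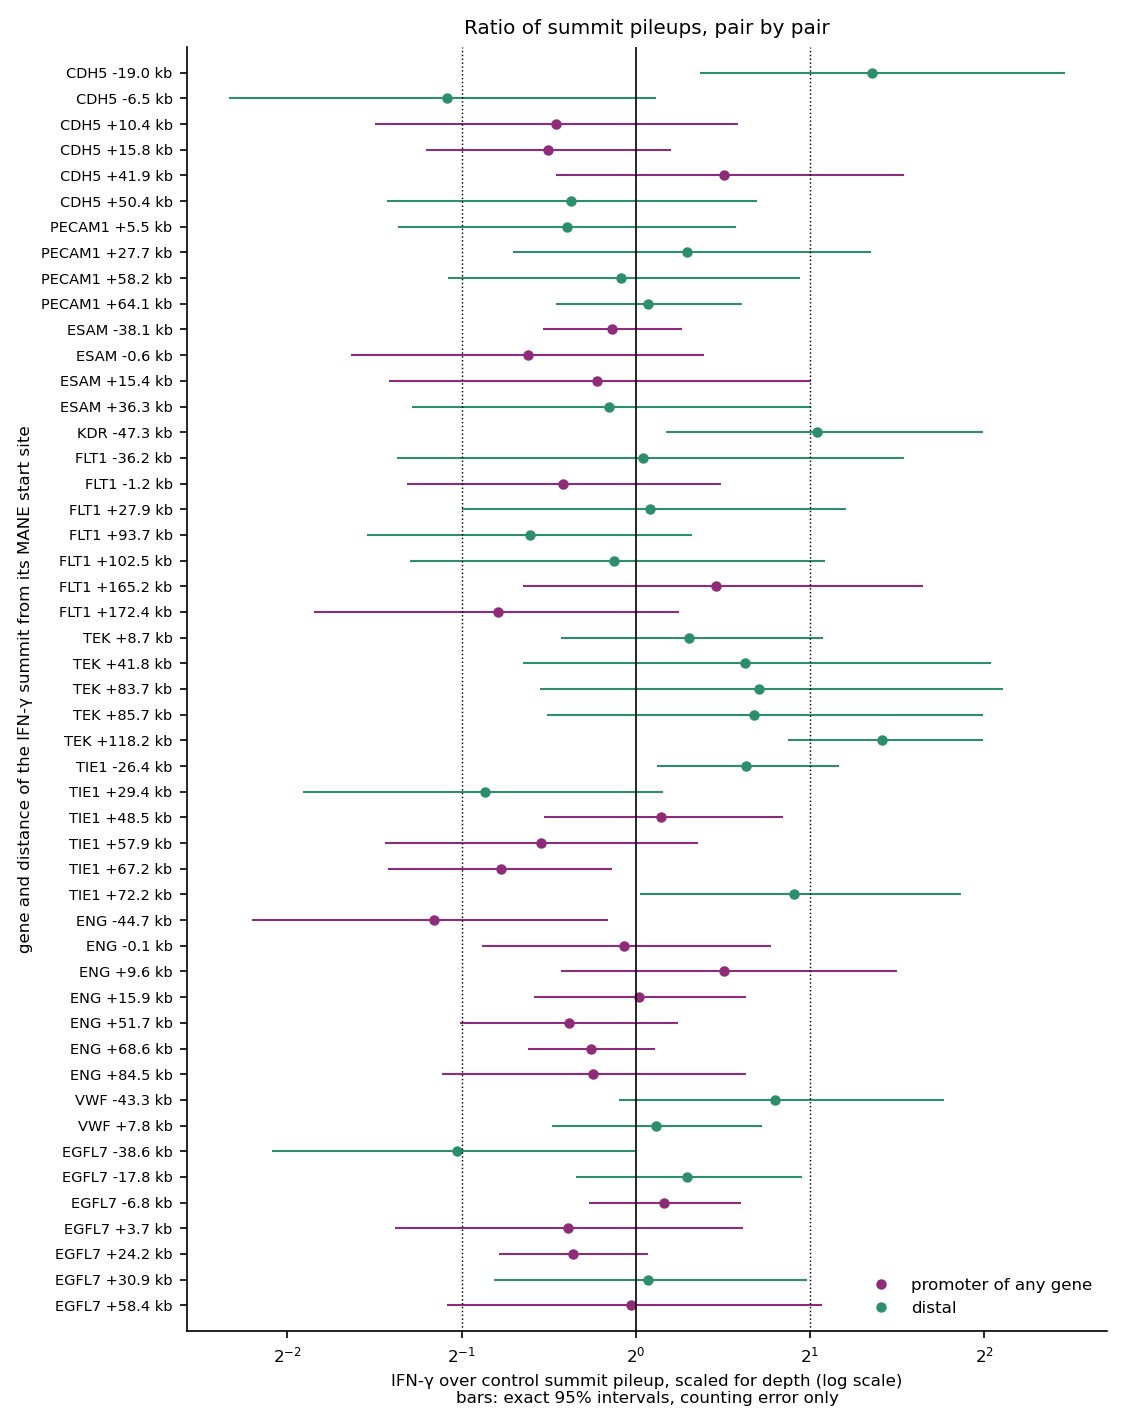
Ratio of IFN-γ to control summit pileup, divided by relative depth (horizontal axis, log scale), for each of the 49 shared pairs, named by gene and distance of the IFN-γ summit from the MANE TSS (vertical axis); bars are exact 95% intervals of counting error. The intervals of 41 pairs cross 1, and the *TEK* pair at +118.2 kb has the highest ratio, 2.67.

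GGAA cores were nearly universal at these summits and long repeats were few. Within 100 bp of the summit, 65 of 66 control and 71 of 71 IFN-γ peaks had a core, beside 96.1% and 97.9% of all peaks in windows of the same length. An octamer or a run of at least 4 units was found at 14 of 66 control summits (21.2%) and 13 of 71 IFN-γ summits (18.3%), beside 19.7% and 24.3% of all. For runs alone the counts were 2 and 4, at *CDH5* and *FLT1* in both libraries and in the *PECAM1* window after IFN-γ, or 3.03% and 5.63% beside 6.94% and 10.8%. AP-1 words stood at 10 control and 9 IFN-γ summits, 15.2% and 12.7%, beside 14.1% and 17.2% of all. The GATA word AGATAA was at 6 summits in each library, 9.09% and 8.45%, beside 6.37% and 7.90%.

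Other endothelial genes were described from lists of 19 transcription factors, 19 receptors and ligands and 20 junction and adhesion genes. A promoter peak was present at 39 of these 58 genes in the control (67.2%) and 37 after IFN-γ (63.8%), beside 61.9% and 59.7% of all protein-coding genes, and at 35 in both. Transcription factors had 14 and 12 of 19, receptors and ligands 15 and 15 of 19, and junction and adhesion genes 10 and 10 of 20. Epithelial junction and receptor genes, which suit the cell line, had 12 and 13 of 17, and megakaryocyte genes 4 and 4 of 12. The junction and megakaryocyte lists thus had the lowest shares of the 5, and no list was tested against another.

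**Figure D3:**
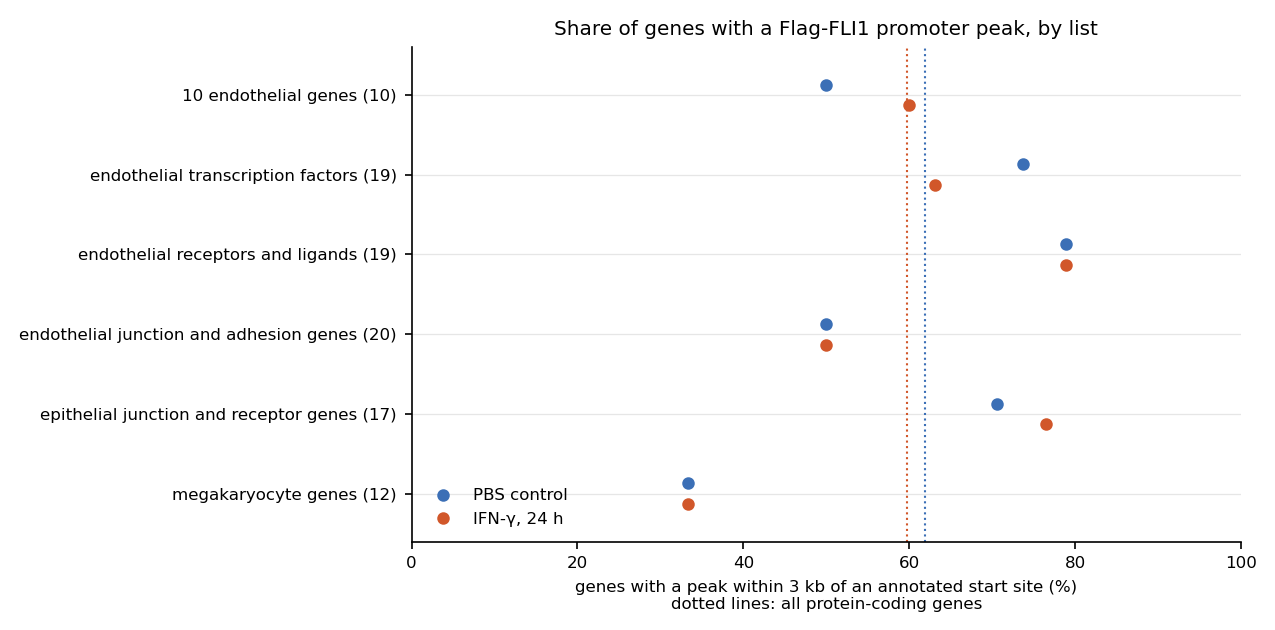
Percent of genes with a Flag-FLI1 peak within 3 kb of an annotated TSS (horizontal axis) for the 10 genes and 5 other lists, with the number of genes of each list in parentheses (vertical axis), in the control library (blue) and the IFN-γ library (orange). Dotted lines mark all protein-coding genes, 61.9% and 59.7%; the 10 genes stand at 50% and 60%.

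By mean rank over both libraries, the endothelial genes with the strongest promoter peaks were *MMRN2*, *NOS3*, *ETS2*, *RASIP1*, *KLF2*, *MEF2C*, *JAG1*, *GATA2*, *PROCR* and *ROBO4*. In both libraries, the *MMRN2* peak was nearest to a TSS of *ADIRF-AS1* and the *JAG1* peak to one of ENSG00000270792. The *NOS3* summits lay 2002 bp from a TSS of the gene in the control and 2025 bp after IFN-γ. *NOS3*, the endothelial nitric oxide synthase, had folds of 21.4 and 19.2 in the control and IFN-γ libraries, with 49 and 64 fragments. *KLF2*, the transcription factor induced by blood flow, had folds of 19.95 and 18.3 with 40 and 50 fragments, and *ETS2*, a relative of FLI1, 17.0 and 22.1 with 35 and 72 fragments. *RASIP1*, needed for vessel lumens, had folds of 12.5 and 31.7 with 33 and 98 fragments. For *EGFL7*, the highest of the 10 genes, the promoter folds were 24.7 and 21.9.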

How the data were processed

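The data were the peak lists of 2 Flag-FLI1 ChIP libraries of HK1 cells. As the methods and processing notes state, the authors used cutadapt 1.18 for trimming, Bowtie2 2.3.4.1 for alignment to GRCh38, Picard for removal of duplicates and MACS2 2.1.2 for calling peaks per library, with a p-value cutoff of 0.01. The lowest −log10 p in the deposited lists was 3.52 in the control and 3.46 in the IFN-γ library. Both lists thus end at a stricter p-value than 0.01, and a site missing from them may still have passed that cutoff. Use of the input in calling is not given in the sources used here. The deposited fold (a ratio of pileup plus 1 to background plus 1) and the deposited −log10 p were used to rank peaks and to recover pileups, with a largest relative error of 6.21e-06. The deposited −log10 q served as an alternative cutoff, and the deposited score was not used. Lists without read totals leave depth known only through pileups and backgrounds.

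A promoter peak overlapped the 3 kb either side of a TSS of GENCODE 44. Shared peaks overlapped by at least 1 bp, and pairs were mutually closest by summit. Both strands were searched for motifs up to 100 bp from a summit, and overlapping words were counted separately. Shares over all peaks and all protein-coding genes were computed on the whole lists. Named in full were the 10 genes, their promoter peaks, up to the 3 highest peaks per window, and the 10 other endothelial genes of highest mean rank. The members and lists were chosen with earlier results of these data known. Alternatives were other distances, cutoffs, list lengths, definitions of sharing, scalings and motifs. Pileup recovery, overlaps, nearest TSSs and repeat runs were tested on simulated data. Python 3.11.15, numpy 2.4.6, scipy 1.17.1, pandas 2.3.3 and matplotlib 3.10.9 were used. The values of 1 neighbouring gene are not reported here.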

Additional observations from a re-analysis of the deposited data

How the results depend on the processing

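Of 47 alternatives to the counts, shares and the median ratio, 37 left the value within the margin set for it and 10 moved it. Peaks in the windows numbered 36 in the control and 41 after IFN-γ with 10 kb around the genes, and 103 and 107 with 100 kb. Counted as within the margin were 46 and 56 peaks at a q-value under 1e-05, and 66 and 55 with lists of equal length. With lists of equal length, the IFN-γ library thus had fewer peaks in the windows than the control, not more. With protein-coding genes alone, 41 control and 42 IFN-γ peaks were nearest to one of the 10 genes. Counting a pair only where summits lay within 100 bp lowered the shared shares to 57.6% and 54.9%, and runs of at least 4 GGAA units alone were at 3.03% and 5.63% of summits. Promoter counts were 5 in the control under all alternatives and 5 or 6 after IFN-γ. These alternatives did not include 1 kb around the MANE TSS alone, where 3 of the 10 genes had a peak in each library. Of all protein-coding genes, 54.7% had one there in the control and 50.5% after IFN-γ. The limit of 100 bp between summits, chosen for the pileup ratio after seeing the data, gave a median of 0.981. No paired analysis was possible because there was a single library on either side. The median bounds of the pair intervals, which cover counting error only, were 0.542 and 1.71, and variation between replicates was not measured.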

Other observations

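Genes of the other lists without a promoter peak in either library were looked up after their values were seen. Among the 19 endothelial transcription factors these were 5, namely *ERG* and *FLI1* themselves, *TAL1* and *LYL1*, which act in blood and vessel progenitors, and *PROX1*, the regulator of lymphatic fate. *ETV2*, an ETS factor of early vessel formation, and *SOX18* had one in the control alone, with folds of 10.7 and 8.51. The nearest TSS to the *SOX18* peak was one of *TCEA2*. Of the 20 junction and adhesion genes 9 had none, among them *CLDN5*, a claudin of tight junctions, and the leukocyte adhesion genes *SELE* and *VCAM1*, while *ICAM1* had folds of 8.27 in the control and 5.05 after IFN-γ. Of the 19 receptors and ligands 3 had none, namely *FLT4*, the VEGF receptor of lymphatic vessels, the apelin receptor gene *APLNR* and *ANGPT2*, which encodes a ligand of TIE2.

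The epithelial genes with the highest control folds were *MET*, with 19.7 in the control and 23.6 after IFN-γ, and *ERBB2*, with 19.7 and 22.0, both growth factor receptors. The *MET* summit lay 88 bp from a TSS of the gene in the control and 2573 bp from one after IFN-γ, so its folds belong to different summits. For *ERBB2*, the control peak was nearest to a TSS of *PGAP3*. Keratin genes *KRT5* and *KRT14* had no promoter peak in either library. A missing peak is under the cutoff of its list, and none of these differences was tested.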
